A study of Gallus gallus with 7 samples.

Results

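The regions described here are 500-bp stretches of chicken DNA that were highly methylated and held few measured CpG positions. A region was selected on 3 conditions, using only the positions with a value in all 7 libraries (common positions). It had 3 to 30 common positions, its mean over the 4 non-conditioned libraries was at least 80%, and neither adjacent region with 3 or more common positions was under 10% in that mean. These conditions gave 1896 of the 19115 regions with 3 or more common positions, or 14.04% of the 13500 with 3 to 30. Because the non-conditioned values chose the regions, their non-conditioned level is a description and carries no test.

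The DNA came from microglia, the resident macrophages of the brain, collected by cell sorting from the anterior hypothalamus of 10-day-old chicks that had not been injected with lipopolysaccharide. The 4 non-conditioned libraries, numbered 1 to 4, came from chicks with no heat treatment, and the 3 conditioned libraries, numbered 1-2, 3 and 4, from chicks held at 39 °C for 24 h on day 3. Per the labels every library is a pool of 10 to 12 chicks and was made from 15 to 30 ng of DNA, strain and sex are not stated, and the number 1-2 is not explained. Reduced representation bisulfite sequencing (RRBS) was used, which reads methylation in CpG-rich restriction fragments; the values hold no expression, so the cell type was not checked against markers.

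In vertebrate genomes most CpG sites outside CpG islands carry methyl groups on both strands, and the maintenance methyltransferase DNMT1 restores the mark on the new strand after each replication. CpG islands, which often lie at gene starts, are mostly free of methylation. Methylated cytosines tend to mutate to thymine over evolution, so methylated stretches of a genome tend to hold few CpG sites.

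The label CpG-sparse refers to measured positions, and the limit of 30 common positions set a low count of them in advance. The median region had 6 common positions (quartiles 4 and 10) and 12 positions listed in any library (quartiles 7 and 20.3). Under the same limit, all regions of 3 to 30 common positions had a median of 17 listed positions. Those of them with a non-conditioned mean under 10% had 33. The 68 equally methylated regions with more than 30 common positions had 62, a contrast that follows largely from the limit itself. The common positions of a highly methylated sparse region spanned a median of 68 bp, so each value describes a short stretch inside the 500 bp. Positions of both strands were present in 1639 of the 1896 regions. Without a genome of the files' build the number of CpG sites in the DNA itself, and any gene at these regions, was not analysed here.

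The number of positions behind a region differed widely. There were 899 regions with 3 to 5 common positions, 564 with 6 to 10 and 433 with 11 to 30. Read depth is unknown, since the table gives percentages only, and coverage of the listed positions in these regions was uneven. Values were present at 65.2% to 68.7% of them in the non-conditioned libraries, 73.7% in conditioned library 1-2, 84.8% in conditioned library 3 and 83.6% in conditioned library 4. Pools of chicks are the replicates, so p-values below measure the spread between these pools.

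Methylation was high at most common positions of these regions in every library, which the choice itself set for the non-conditioned ones. Of the 15011 common positions, 73.3% to 76.4% were at 80% or more in the non-conditioned libraries. The share was 68.8% to 70.7% in the conditioned libraries. Between 0.633% and 1.30% were under 10% in each library. A further 20.6% to 27.3% of positions lay between 50% and 80%. The distribution of non-conditioned means over all regions of 3 to 30 positions had no gap at the limit, with 931 regions between 75% and 80% and 860 between 80% and 85%. Of the 1896 highly methylated regions, 1504 lay under 90%. The 3 regions just inside the limit, on chromosome 13 (12944001 to 12944500) and chromosome 10 (17088001 to 17088500 and 19081001 to 19081500), had conditioned means of 70.4%, 83.0% and 79.3%. The 3 just outside it, on chromosome 1 (9752001 to 9752500 and 421501 to 422000) and chromosome 10 (2638001 to 2638500), had 71.3%, 71.1% and 78.6%.

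**Figure D1:**
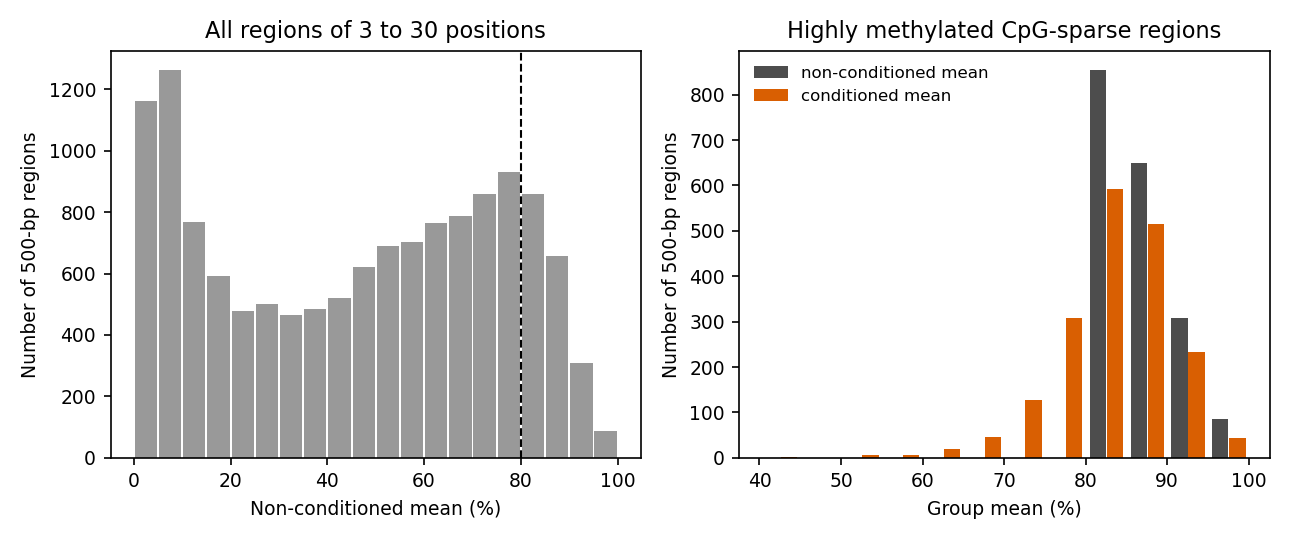
Left, number of 500-bp regions of 3 to 30 common positions by non-conditioned mean methylation in percent, with the 80% limit as a dashed line. Right, the 1896 highly methylated regions by non-conditioned mean (grey) and conditioned mean (orange); 1383 of them kept a conditioned mean of 80% or more, and the non-conditioned mean is at least 80% because it chose them.

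The regions stayed highly methylated in conditioned microglia. The conditioned mean was at least 80% in 1383 regions (72.9%), under 70% in 79, under 60% in 14 and under 50% in 1. Of the 14 under 60%, 13 had only 3 to 5 common positions and 0 had 11 to 30. All 3 conditioned libraries were at 80% or more in 845 regions, and in 150 none was. The region with a conditioned mean under 50%, at chromosome 1, 195452001 to 195452500, was named after its values were seen. Over 5 positions of 1 strand it had 100%, 80%, 86.7% and 100% without conditioning, and 80%, 40% and 0 in conditioned libraries 1-2, 3 and 4. At its 11 positions outside the choice the conditioned libraries had 100%, 75.8% and 70%, so the low value was not found at the other cytosines of the region.

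Averaged over the 1896 regions, methylation was 82.2% in conditioned library 1-2, 83.6% in conditioned library 3 and 83.7% in conditioned library 4. The non-conditioned libraries had 85.7%, 86.0%, 86.3% and 87.1%. Every conditioned library was below every non-conditioned one, with group means of 83.2% ± 0.844 (SD, n = 3) and 86.3% ± 0.608 (SD, n = 4), but these are the values that chose the regions and the difference of -3.09 percentage points was not tested. When the same conditions were applied to the conditioned mean instead, 1681 regions were chosen and the order turned, with 85.9% ± 0.582 (SD, n = 3) in conditioned and 85.1% ± 0.618 (SD, n = 4) in non-conditioned libraries, a difference of 0.792 points. The lists shared 1380 regions, 72.8% of the first and 82.1% of the second.

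Values of 3 kinds that had no part in the choice were therefore compared between the groups, and none of the 3 differences passed. The smallest exact p that 35 arrangements allow is 0.0286. After adjustment over 8 readouts, a readout at that p passes only if several others reach it too. Failure to pass after adjustment was thus nearly set by the design and says little. Only the first kind left out the library that was measured. In the other kinds the same non-conditioned libraries chose the regions, and the choice was not repeated in each arrangement. A deviation of these libraries shared by nearby cytosines could thus remain in those values. For the first kind, each non-conditioned library was left out in turn and regions were chosen by the other 3. The libraries left out then had 83.1%, 84.0%, 84.5% and 85.1%, and conditioned libraries 1-2, 3 and 4 had 82.0%, 83.4% and 83.5%, so the groups overlapped. The difference was -1.21 points (exact permutation p = 0.143 with the choice repeated in each of 35 arrangements, two-sided, Benjamini-Hochberg adjusted 0.190 over 8 readouts). Without conditioned library 1-2 it was -0.741 points, and without conditioned library 3 or 4 it was -1.41 or -1.49 points.

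For the second kind, regions were chosen on the cytosines of a single strand and measured on those of the other, in both directions. The non-conditioned libraries had 82.5%, 83.4%, 84.0% and 84.0%, and the conditioned ones 81.9%, 82.5% and 83.1%. The lowest library was conditioned 1-2, and conditioned library 4 stood above non-conditioned library 1. The difference was -1.005 points (exact permutation p = 0.114, adjusted 0.190), and this readout was added after results had been seen.

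The third kind was the 15111 positions inside the 1896 regions that lacked a value in at least 1 library and so had no part in the choice. They were less methylated, with 78.7%, 80.4%, 80.8% and 81.1% in non-conditioned libraries 1 to 4 and then 79.6%, 77.2% and 78.5% in conditioned libraries 1-2, 3 and 4. Here conditioned library 3 was the lowest and conditioned library 1-2 lay inside the non-conditioned range. The difference was -1.79 points (exact permutation p = 0.114, adjusted 0.190). It was -1.18 points without conditioned library 3 and -2.38 points without conditioned library 1-2, where the remaining libraries did not overlap. The libraries did not measure the same of these positions, since non-conditioned libraries had values at 4616 to 5690 and conditioned ones at 7179 to 10547.

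**Figure D2:**
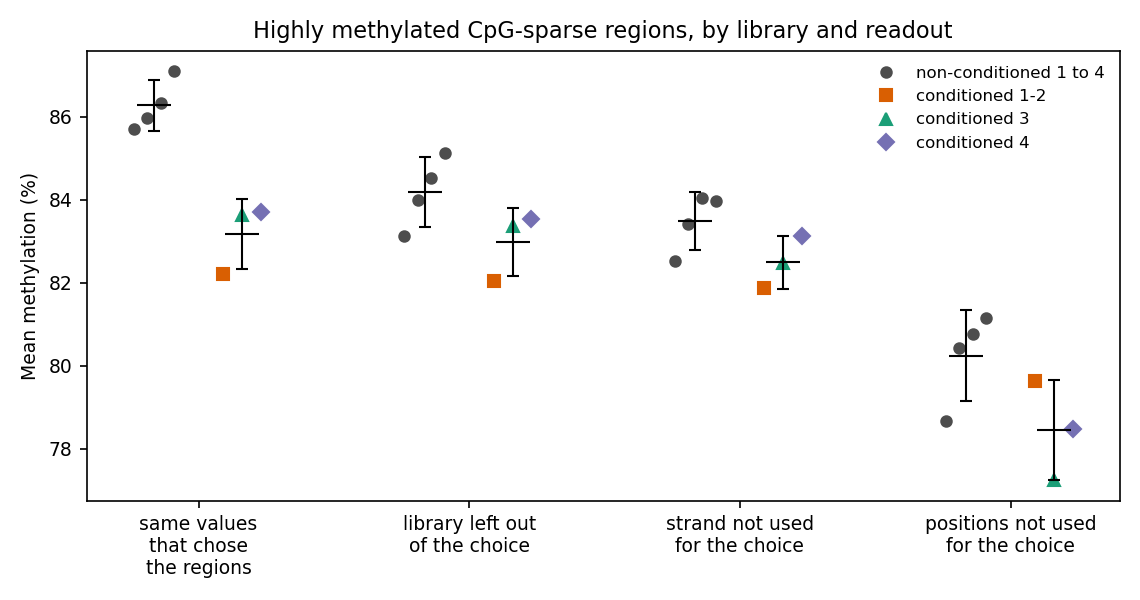
Mean methylation in percent of each library in 4 readouts of the highly methylated regions; each point is a library, and bars show the group mean ± SD (non-conditioned n = 4, conditioned n = 3). The groups separate in the values that chose the regions (83.2% and 86.3%) and overlap in the other 3 readouts, where the differences are -1.21, -1.005 and -1.79 points.

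The share of cytosines listed at 100% differed more than the mean. With the choosing libraries left out, 32.7%, 33.1%, 34.3% and 35.4% of common positions were listed at 100% in non-conditioned libraries 1 to 4. The shares were 24.0%, 21.5% and 21.8% in conditioned libraries 1-2, 3 and 4. The groups did not overlap, with a difference of -11.5 percentage points (exact permutation p = 0.0286, the smallest that 35 arrangements allow, adjusted 0.190; the test was chosen after the values were seen). At the positions outside the choice the shares were 69.96% to 73.8% in non-conditioned libraries and 67.8%, 56.9% and 60.4% in conditioned libraries 1-2, 3 and 4. The share at 80% or more differed less, with 69.8% to 73.9% in non-conditioned and 68.3% to 70.3% in conditioned libraries (difference -2.86 points, exact permutation p = 0.114, adjusted 0.190).

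The lower share at 100% was not limited to these regions. Over all 513180 common positions it was 4.43% to 5.18% in non-conditioned libraries and 3.59%, 2.499% and 2.79% in conditioned libraries 1-2, 3 and 4. In the 68 methylated regions with more than 30 positions it was 30.6% to 31.7% and 19.9% to 24.0%. A position read few times reaches 100% more readily than one read many times. The conditioned libraries had values at more positions, and the part of depth in these differences was not tested.

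The strands of a CpG carried similar levels. The regions held 5374 CpG pairs with a value on both strands in all 7 libraries. Means on the upper and lower strand were 84.1% and 84.0% in conditioned library 1-2, 84.7% and 84.4% in conditioned library 3, and 84.7% and 85.0% in conditioned library 4. The median gap between the cytosines of a pair was 8.02 to 8.23 points in the conditioned libraries. A gap of more than 50 points was found in 1.58% to 1.99% of pairs, and both cytosines were at 80% or more in 57.1% to 59.7%. Both cytosines had the same value in 7.83%, 6.75% and 6.62% of pairs in conditioned libraries 1-2, 3 and 4. The non-conditioned libraries, whose values chose the regions, had 14.4% to 15.9%.

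At the common positions of these regions conditioned library 1-2 stood elsewhere in the order of libraries than it did over all regions. Across all regions with 3 or more common positions it had the highest mean of the 7 libraries, 37.1%, and stood 3.10 points above the mean of conditioned libraries 3 and 4. In the highly methylated sparse regions it had the lowest, 1.46 points below that mean. In the 68 methylated regions with more than 30 positions it was again the highest, with 85.9% against 83.4% and 85.1% in conditioned libraries 3 and 4. It also varied most from region to region, with an SD over the 1896 regions of 10.2 points against 9.08 and 8.72 in conditioned libraries 3 and 4, and it was under 60% in 60 regions against 38 and 33. At the 15111 other positions of the same regions it was the highest conditioned library, at 79.6% against 77.2% and 78.5%, as it was over all regions. With a single library of this kind the difference has no replicate check.

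The value of conditioned library 1-2 was lowest in the regions with the fewest positions. With the choosing libraries left out, it had 80.8% in regions of 3 to 5 positions, 82.5% in those of 6 to 10 and 84.0% in those of 11 to 30. Conditioned library 3 had 83.2%, 83.8% and 83.1%, and conditioned library 4 had 83.3%, 83.5% and 84.0%. Conditioned library 1-2 was thus below all other libraries among regions of 3 to 5 and of 6 to 10 positions, and among those of 11 to 30 it was above conditioned library 3. Regions at a conditioned mean of 40% to 60% showed the same order, where conditioned library 1-2 stood above the mean of the other conditioned libraries by 3.43 points with 3 to 5 positions, 5.72 with 6 to 10 and 9.78 with 11 to 30. In regions with a non-conditioned mean under 10% it stood 2.57 points above with 3 to 5 positions and 2.54 with 11 to 30.

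**Figure D3:**
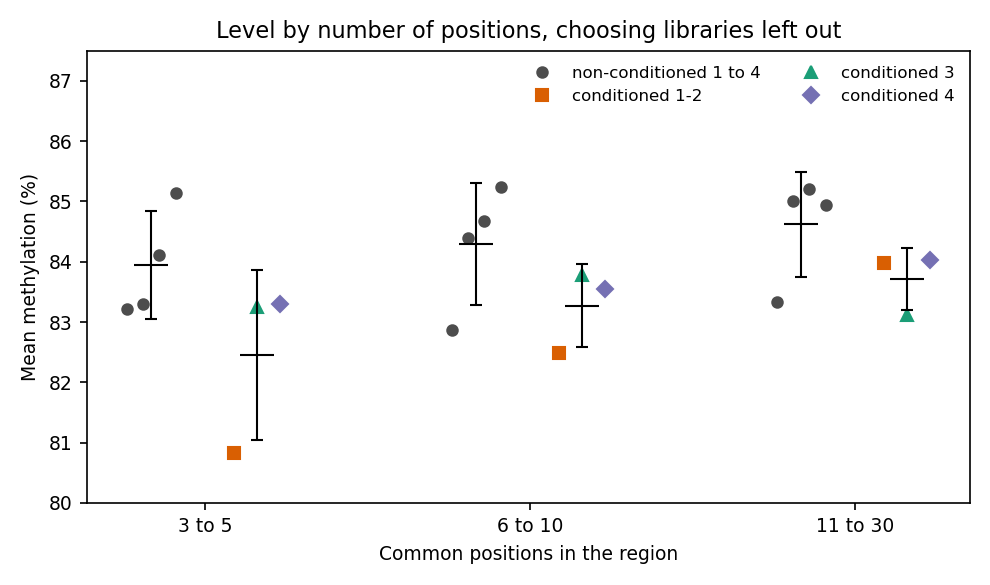
Mean methylation in percent of each library in highly methylated regions, by the number of common positions, with each non-conditioned library measured in regions chosen by the other 3; the vertical axis starts at 80%. Points are libraries and bars the group mean ± SD (n = 4 and n = 3); conditioned library 1-2 goes from 80.8% at 3 to 5 positions to 84.0% at 11 to 30.

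No class of these regions separated the groups. The difference with the choosing libraries left out was -1.49 points with 3 to 5 positions, -1.02 with 6 to 10 and -0.908 with 11 to 30. It was -1.37 on chromosome 1 and -1.07 on the other chromosomes together, which ranged from -0.179 on chromosome 10 to -2.86 on chromosome 14, and it was -1.18 in regions with no measured neighbour and -1.28 in those with one. The lowest exact permutation p of these 7 comparisons was 0.0857, and their adjusted values ran from 0.233 to 0.257. Here too a class at the smallest possible p would pass adjustment only if several others reached it. The spread between conditioned libraries narrowed with more positions in these regions. The median SD was 6.44 points at 3 to 5 positions, 4.50 at 6 to 10 and 3.22 at 11 to 30. Whether the narrower spread came from more precise measurement was not tested.

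The regions occurred on all 6 chromosomes with library values. Chromosome 1, a macrochromosome, held 913, which is 15.97% of its regions of 3 to 30 positions. Chromosomes 10, 11 and 12 held 240, 237 and 241 (13.4%, 14.1% and 14.1%), and the part of chromosome 14 in the table held 82 (12.7%). Chromosome 13 had the lowest share, 183 regions or 9.37%. The conditioned mean was 83.5% ± 1.27 (SD, n = 3) on chromosome 1, 83.7% ± 0.513 (SD, n = 3) on chromosome 10, 82.1% ± 1.19 (SD, n = 3) on chromosome 13 and 81.3% ± 2.34 (SD, n = 3) on chromosome 14. On chromosome 14 conditioned library 1-2 had 78.6% and conditioned libraries 3 and 4 had 82.7% and 82.6%. Differences between chromosomes were not tested.

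Most of the regions stood alone among the measured ones. In 1210 of the 1896 no adjacent region had 3 or more common positions, in 547 there was 1 such neighbour and in 139 there were 2. The condition on neighbours left out 17 regions in all. Of the runs of adjacent highly methylated regions, 133 were 2 regions long, 9 were 3 long and 1 was 4 long. The run of 4 lay on chromosome 1 from 32604001 to 32606000. Its 4 regions had conditioned means of 88.2%, 80.03%, 88.0% and 92.9%, and the second of them was low only in conditioned library 1-2, at 63.7% against 91.2% and 85.2% in the others. Of the 9 runs of 3 regions, the first 2 in genome order are given here. They lay on chromosome 1 from 83142501 to 83144000 and from 194823001 to 194824500. Their conditioned means were 77.8% to 85.8% and 78.4% to 85.7%.

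Methylation around these regions was lower at larger distances, with most of the fall in the nearest regions. Adjacent regions, which the selection kept above 10%, averaged 71.5% in the non-conditioned libraries. The mean was 57.8% at 1000 bp, 50.9% at 1500 bp and 48.1% at 2000 bp. At 10000 bp it was 44.0%, against 36.0% over all 19115 regions and 45.9% over those of 3 to 30 common positions. The selection set no condition at 1000 bp and beyond, but the regions counted there include highly methylated ones chosen on these same values. With those left out, regions 2 to 4 regions away averaged 43.2% in the non-conditioned libraries. The averages of 36.0% and 45.9% still include the highly methylated regions, so they are not a like background for this value. The share of regions at 80% or more fell from 40.1% of adjacent ones to 25.04% at 1000 bp, 11.0% at 5000 bp and 14.8% at 10000 bp, against 10.4% of all regions and 14.2% of those of 3 to 30 common positions. Regions around unmethylated ones showed the opposite course in the conditioned libraries, with 9.66% in adjacent regions and 37.3% at 10000 bp. Around the highly methylated regions the conditioned means were 70.9% and 43.3% at these distances. The unmethylated regions were chosen by their non-conditioned mean, and no value with other unmethylated regions left out is given here.

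No difference between the groups was detected in this surrounding DNA. The 1403 regions lying 2 to 4 regions away exclude the highly methylated regions themselves. There the non-conditioned libraries had 41.9%, 43.5%, 43.7% and 43.8%, and conditioned libraries 1-2, 3 and 4 had 46.0%, 40.2% and 43.4%. Conditioned library 1-2 was above all non-conditioned libraries and conditioned library 3 below them, with a difference of -0.00648 points (exact permutation p = 1). Conditioned library 1-2, the highest of the 7 here, was the lowest at the common positions of the highly methylated regions, but not at their other positions.

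**Figure D4:**
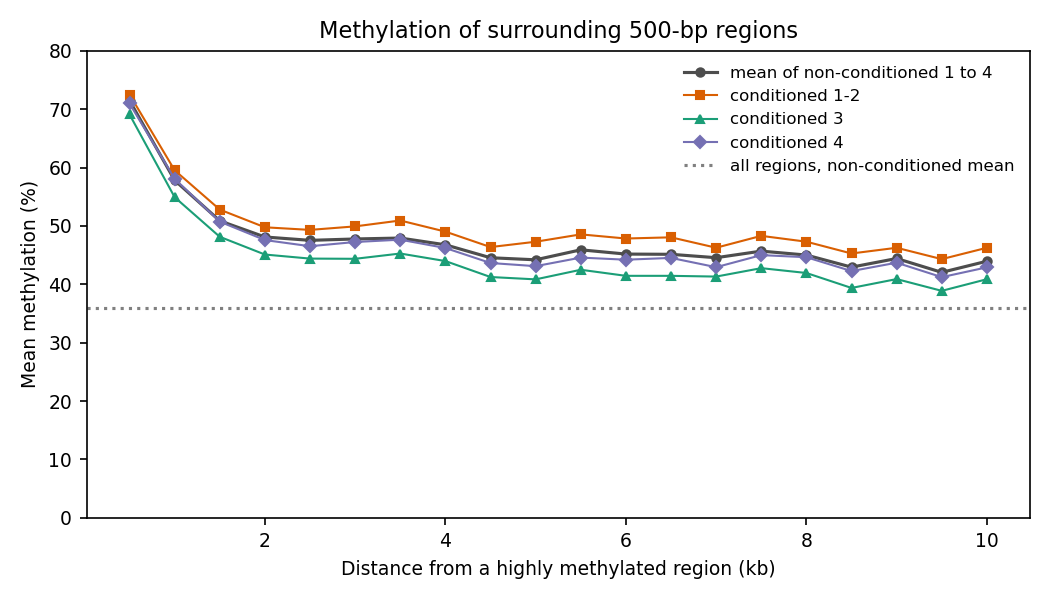
Mean methylation in percent of 500-bp regions at each distance from a highly methylated region, for the mean of the 4 non-conditioned libraries and for each conditioned library; the dotted line is the non-conditioned mean of all regions, 36.0%. All lines fall from 69.1% to 72.5% at 0.5 kb to 40.9% to 46.3% at 10 kb, with conditioned library 1-2 highest and conditioned library 3 lowest at each distance. Other highly methylated regions are counted among those at each distance.

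The shift between groups was also set against that in other classes, at positions the choice did not use. In unmethylated regions these positions had 14.6% to 19.1% in the non-conditioned libraries, 16.6% in conditioned library 1-2, and 7.27% and 8.46% in conditioned libraries 3 and 4. The gap from highly methylated to unmethylated regions was therefore 62.0 to 64.9 points in non-conditioned libraries, 63.1 in conditioned library 1-2, and 69.97 and 70.02 in conditioned libraries 3 and 4. The groups differed by 4.09 points in this gap (exact permutation p = 0.143, adjusted 0.190). The difference was 6.40 points without conditioned library 1-2, and 2.95 or 2.92 points without conditioned library 3 or 4. The libraries did not measure the same positions. In the unmethylated regions 57.9% to 63.2% of listed positions had a value in non-conditioned libraries. The shares were 66.8%, 85.5% and 81.1% in conditioned libraries 1-2, 3 and 4. The non-conditioned values also chose the unmethylated regions, and the part of coverage in this gap was not tested. The 17 highly methylated regions with an unmethylated neighbour held only 152 positions outside the choice. The corresponding difference of -2.48 points (exact permutation p = 0.829) thus rests on few positions. Non-conditioned library 4 alone was at 69.2% in them, against 80.8% to 81.8% in the other non-conditioned libraries.

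Single regions were compared with limma on all 19115 regions, as a log2 ratio of methylated to unmethylated fraction with an offset of 0.05. No region passed at an adjusted p under 0.05, that is 0% of all regions and 0 of the 1896. At an unadjusted limma p under 0.05, 108 highly methylated regions (5.70%) were lower in conditioned microglia, against 4.94% of all regions, and 7 (0.369%) were higher, against 1.14%. Every conditioned library was below every non-conditioned one in 104 regions (5.49%), against 5.77% of all regions, and above in 11 (0.580%), against 1.17%. The non-conditioned arm of this contrast chose the regions, so nothing is read from the imbalance. Among the 1681 regions chosen by the conditioned mean, the unadjusted counts were 28 lower and 34 higher. The median log2 difference was -0.19 over the highly methylated regions and -0.13 over all.

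The lowest adjusted p belonged to a highly methylated region at chromosome 1, 106249001 to 106249500, named for that reason. All 4 non-conditioned libraries were at 100% there, and the values were 80%, 69.4% and 68.8% in conditioned libraries 1-2, 3 and 4, over 4 positions of 1 strand (log2 difference -3.11, SE 0.27, limma adjusted p = 0.0639). Its 13 positions outside the choice did not separate the groups, with 81.3% to 100% without conditioning against 85.7%, 81.0% and 89.5% after it. Its common values are among those that chose the regions. It passed with each library centred on its median (limma adjusted p = 0.0471) and without a trend in the prior (limma adjusted p = 0.0233), but not with an offset of 0.01 (limma adjusted p = 0.0524) or with any library left out (limma adjusted p from 0.107 to 0.426).

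Among regions with 6 or more positions and both strands, the lower ones with the smallest limma p were these. The region at chromosome 12, 18984501 to 18985000, had 8 positions, with 85.4%, 81.9%, 91.7% and 93.8% in non-conditioned microglia and 68.8%, 68.8% and 71.0% after conditioning. Its conditioned values were within 2.29 points of each other and clear of the others (log2 difference -1.46, SE 0.33, limma adjusted p = 0.774). Its 7 positions outside the choice did not separate the groups. They had 83.3% to 100% in the non-conditioned libraries with a value, and 100%, 100% and 75% in the conditioned ones. The region at chromosome 12, 16009501 to 16010000, had 87.8% to 92.9% in non-conditioned libraries and 78.7%, 82.8% and 67.9% in conditioned ones over 9 positions. The region at chromosome 13, 11824001 to 11824500, had 87.3%, 81.7%, 86.4% and 87.4% and then 76.0%, 76.4% and 72.3% over 6 positions, again with no overlap.

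In the other lower regions the groups did not overlap either, on values that also chose the regions. Their conditioned libraries ranged over 29.7, 11.6 and 10.5 points in the order given here. The range was 15.0 points in the region at chromosome 12, 16009501 to 16010000. At chromosome 11, 6874001 to 6874500, the non-conditioned libraries averaged 91.7% ± 5.89 (SD, n = 4) and the conditioned ones had 47.5%, 77.2% and 73.0%, so conditioned library 1-2 carried much of the gap. At chromosome 11, 15878001 to 15878500, with 13 positions, conditioned library 3 was lowest, at 67.8% against 77.6% and 79.4% in the others and 85.2% to 93.1% in non-conditioned ones. At chromosome 14, 2670501 to 2671000, with 17 positions, the values were 78.6% to 85.7% and then 73.2%, 65.5% and 76.0%. None of these regions passed, all with the limma adjusted p of 0.774. In all the lower regions named here, the groups overlapped at the positions outside the choice.

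The regions higher in conditioned microglia with the smallest limma p were named by the same rule. The one with the most positions was at chromosome 12, 2419501 to 2420000, where 24 positions gave 87.6%, 87.4%, 89.0% and 89.1% in non-conditioned microglia and 98.2%, 91.4% and 93.8% after conditioning, without overlap (log2 difference 0.82, SE 0.31, limma adjusted p = 0.774). Its 32 positions outside the choice did not repeat this, with 100%, 100%, 71.4% and 100% and then 96.7%, 89.4% and 93.3%. The region at chromosome 1, 606001 to 606500, had 77.0% to 89.6% and then 94.5%, 96.1% and 92.8% over 8 positions. The region at chromosome 1, 117846001 to 117846500, had 84.2% to 87.8% and then 89.6%, 91.3% and 89.2% over 10 positions. Its 33 positions outside the choice leaned the other way, with 77.3% to 100% and then 79.7%, 70% and 73.2%. The groups did not overlap in the region at chromosome 1, 49261501 to 49262000, with 79.7% to 86.3% and 86.9% to 92.4%. At chromosome 11, 2023501 to 2024000, the ranges of 66.7% to 88.9% and 88.9% to 98.6% met, and at chromosome 1, 195882501 to 195883000, the ranges of 76.0% to 88.6% and 87.3% to 97.2% overlapped. In all the higher regions named here, the groups overlapped at the positions outside the choice.

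**Figure D5:**
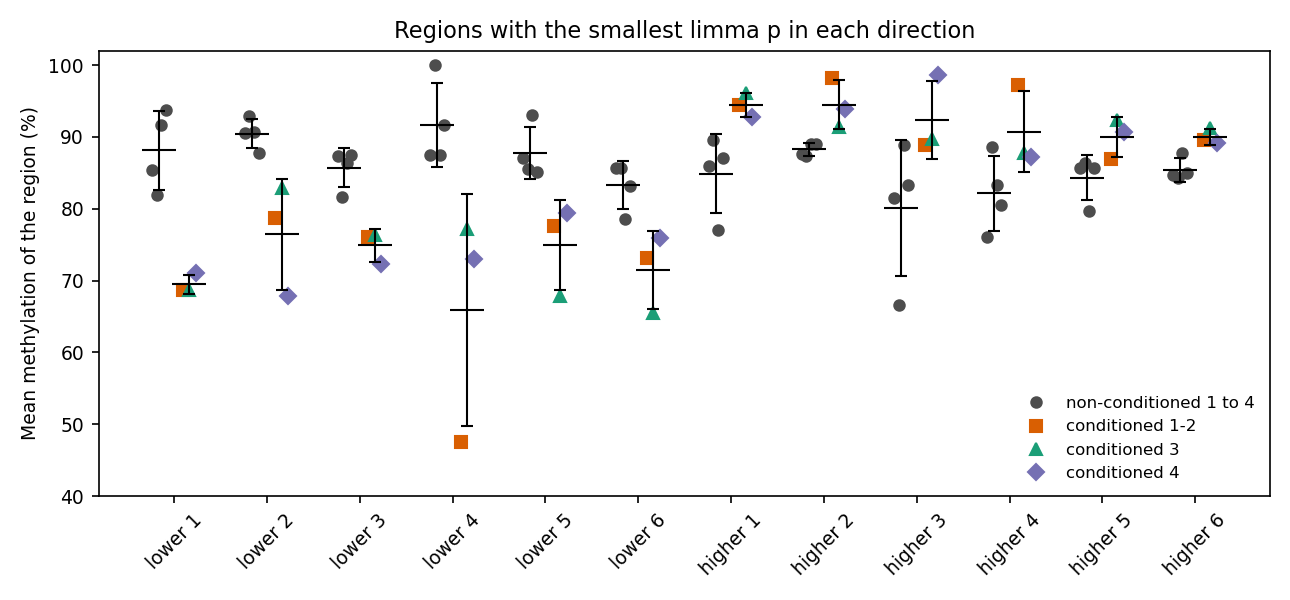
Mean methylation in percent of each library in 12 regions, the 6 with the smallest limma p in each direction among those with 6 or more common positions and both strands, in the order of p; lower 1 to 6 are those at 18984501 and 16009501 on chromosome 12, 11824001 on chromosome 13, 6874001 and 15878001 on chromosome 11 and 2670501 on chromosome 14, and higher 1 to 6 those at 606001 on chromosome 1, 2419501 on chromosome 12, 2023501 on chromosome 11, and 195882501, 49261501 and 117846001 on chromosome 1. Points are libraries and bars the group mean ± SD (n = 4 and n = 3); no region passed adjustment.

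The 6 regions with the most common positions, 30 each, differed in how closely the libraries lay together. At chromosome 1, 150601501 to 150602000, the values were 87.8%, 83.0%, 86.8% and 87.4% without conditioning and 85.2%, 87.7% and 89.6%. At chromosome 10, 2200001 to 2200500, they had 87.9% to 91.1% and 86.0% to 89.8%, and at chromosome 12, 16430001 to 16430500, 81.4% to 85.7% and 81.6% to 83.1%. At chromosome 12, 2457501 to 2458000, non-conditioned library 3 and conditioned library 3 shared a low value, 74.6% and 74.9%, against 82.4% to 88.3% in the other libraries. The regions at chromosome 10, 1080501 to 1081000, and chromosome 12, 2897001 to 2897500, had conditioned means of 79.4% and 78.5% against 84.8% and 83.3%. In the latter the groups did not overlap, with 82.8% to 84.4% and 76.1% to 79.9%.

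Among regions with 6 or more common positions, the 4 with the widest range between conditioned libraries did not share a low library. The region at chromosome 11, 19944001 to 19944500, had 36.8%, 83.2% and 69.9% in conditioned libraries 1-2, 3 and 4 over 9 positions. At chromosome 1, 51012001 to 51012500, it was conditioned library 4 that was low, at 50% against 94.4% and 91.7%. At chromosome 1, 195333001 to 195333500, and chromosome 11, 17906001 to 17906500, it was conditioned library 3, at 46.7% and 46.4%. These 4 regions were picked for their conditioned range, so nothing is read from the narrower range of the non-conditioned libraries in them. At the chromosome 1 region at 51012001 the non-conditioned libraries too ran from 58.3% to 100%.

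The positions outside the choice can be set beside the chosen ones in the regions that hold most of them on each chromosome. At chromosome 13, 10121501 to 10122000, 18 common positions gave 82.0% to 90.8% in the conditioned libraries and 67 other positions gave 89.8% to 94.4%. At chromosome 12, 11617501 to 11618000, 24 common positions gave 86.7% to 89.0% and 57 others 78.2% to 81.7%. At chromosome 11, 656001 to 656500, conditioned library 3 was the lowest in both, at 68.7% over 24 common positions and 67.3% over the others. At those others conditioned libraries 1-2 and 4 had 88.2% and 86.0%, and the non-conditioned libraries had 90.5% to 95.6%. The groups thus did not overlap there, which was not tested. They overlapped at the common positions, where non-conditioned library 1 had 75.3% and conditioned libraries 1-2 and 4 had 77.0% and 77.9%. The regions at chromosome 10, 17792001 to 17792500, and chromosome 14, 4731501 to 4732000, had conditioned values of 93.6% to 95.9% and 89.7% to 94.5% at common positions and of 89.4% to 94.2% and 88.2% to 100% at the others. The region on chromosome 1 is the one that opens the run at 194823001, with 78.3% to 95.8% over 3 common positions and 80.2% to 83.8% over 62 others.

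In the authors' deposited table, 82 segments lay wholly inside 79 of these regions. All 82 had a deposited q-value of 1 in the authors' deposited table. Their deposited conditioned means ran from 66.0% to 95.2%, with a median of 84.0% against 88.4% for the non-conditioned means. In the authors' deposited table the conditioned mean was the lower one in 66 of these segments and the higher one in 16, on the values that also chose the regions. No share over all deposited segments stands beside these counts or the q-values, so nothing particular to these regions is read from them.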

How the data were processed

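RRBS of 7 libraries was analysed from the deposited tables. Per the submitters' processing notes the build was galGal5 and the tools were Bismark 0.22.3, HOMER, Trimmomatic and Bowtie, with no settings. The site table deposited by the authors gives percent methylation per cytosine and library, unscaled and without read numbers. It ends on chromosome 14 at position 4886681, and other chromosomes were not analysed here. The segment table deposited by the authors gives group means in percent, a signed difference score, p-values, q-values and the count of CpG positions, per the file headers.

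Positions with values in all 7 libraries were averaged in 500-bp tiles counted from position 1. Strands were assigned in runs of adjacent positions of even length, paired from the start. Library values were compared by exact permutation tests over 35 arrangements, two-sided, with Benjamini-Hochberg adjustment over 8 readouts and, separately, 7 classes. The choice of regions was repeated in each arrangement only where the choosing libraries were left out. Tiles were fitted with limma 3.58.1 in R 4.3.3 (trend, adjustment over all tiles), with no filter on level, since a filter at 98% drops 6 members. Python 3.11.15, numpy 2.4.6 and pandas 2.3.3 did the rest. The limma and left-out-library steps were tested on simulated data. Named regions follow fixed rules (most positions; smallest limma p with at least 6 positions and both strands; nearest the limit; longest runs; widest conditioned range with at least 6 positions; most positions outside the choice). Ties in the number of common positions, nearness to the limit and run length went by genome order. Members, lists and rules were chosen with earlier results of these data known.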

Additional observations from a re-analysis of the deposited data

Results flagged for a closer look

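A search for single outlying libraries covered 61 sets of 4 non-conditioned values and found 5. Chance alone marks about 1 set in 20, which is 3.05 of 61. In each set the gap to the nearest library, divided by the range, was above Dixon's critical value. Non-conditioned library 1 was low in the regions 2 to 4 regions away (41.9% against 43.5% to 43.8%, gap over range 0.871) and in highly methylated regions of 11 to 30 positions with the choosing libraries left out (83.3% against 84.9% to 85.2%, gap over range 0.862). Non-conditioned library 3 was low in the other 3 sets. At chromosome 1, 49261501 to 49262000, it had 79.7% against 85.7% to 86.3% (gap over range 0.903). At chromosome 13, 12944001 to 12944500, it had 70% against 83.3% in each other library (gap over range 1). At chromosome 1, 83143001 to 83143500, it had 74.7% against 87.0% to 87.7% (gap over range 0.948).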

How the results depend on the processing

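Of 325 values recomputed under other settings, 298 kept their direction and side of the threshold or moved by less than the allowed spread. The number of regions was 392 with a limit of 90%, 3637 with 70% and 997 with at least 6 positions, and the conditioned mean was 88.8% and 78.6% with those limits and 85.9% in regions chosen by the conditioned mean. The unadjusted limma count of 115 was 57 with at least 6 positions, where fewer regions were counted, and 62 in regions chosen by the conditioned mean. With a limit of 70%, the difference 2 to 4 regions away turned to 0.0778 points and that against bordering regions to 1.15 points. The share at 80% or more reached the smallest unadjusted exact permutation p, 0.0286, when each region weighed the same (-3.82 points) and at positions outside the choice (-6.16 points). At that p the share at 100% had an adjusted value of 0.190, above the threshold; the cause was not tested. Leaving out each library gave -1.42 to 1.49 points 2 to 4 regions away, -4.16 to 0.869 points against bordering regions, -12.3 to -11.0 points for the share at 100%, -1.53 to -0.741 points with the choosing libraries left out and 94 to 127 regions at an unadjusted limma p under 0.05. The difference at positions outside the choice then ran from -2.38 to -1.18 points. With a library left out no exact test can pass, since the smallest p is 0.10 or 0.0667. An exact permutation test per region called 78 without adjustment, against 115 by limma. The limma shares over all regions, 4.94% lower and 1.14% higher, belong to the main setting only. No such share stands beside the other counts, and the non-conditioned arm chose the regions, so nothing is read from them.

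As a replicate block, libraries 3 and 4 were paired by number. The share at 100% then differed by -13.3 points, with an exact p of 0.5, the smallest that 2 pairs allow, so no value could pass. The limma count was 128, also without a share over all regions beside it. Deviations of same-numbered libraries correlated at 0.00953 and 0.0139 across regions, and those of unlike number at -0.0154 and -0.0435. Whether same-numbered libraries share more than a number was not tested. Depth is unknown, which limits every value over few positions. The strand, share and class comparisons were added after the data were seen.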
